A study of Mus musculus with 12 samples.

Results

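Chemokines and their receptors were measured in the livers of mice that received an adenovirus carrying either GFP or ChREBP. The members were all genes with a row of their own on the array whose symbol was that of a chemokine ligand (Ccl, Cxcl, Xcl or Cx3cl) or of a chemokine receptor (Ccr, Cxcr, Xcr, Cx3cr or the atypical Ackr), each followed by its number. This gave 55 of the 19938 genes measured, of which 34 were ligands and 21 were receptors, the latter made up of 17 signalling and 4 atypical receptors. The symbol rule itself used no measured value, although it was chosen with earlier results of these data known. Where a gene had several rows, the row with the highest mean over the 12 arrays stood for it.

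Male C57BL/6J mice, 8 weeks old by the labels, were injected through the tail vein, and their livers were taken in the fed state 3 weeks later. The 6 GFP livers carried the virus with the fluorescent protein alone, and the 6 ChREBP livers carried the virus with the carbohydrate response element-binding protein, a glucose-sensing transcription factor that turns on genes of glycolysis and lipid synthesis. All 12 mice thus received an adenovirus, and the promoter that drove the transgene was not given in the sources used here. RNA of whole liver was hybridised to 1 Affymetrix array a mouse. Values are log2 intensities, differences are ChREBP minus GFP, and a gene is said to have risen or fallen where the adjusted p of limma, corrected over all 19938 genes by Benjamini-Hochberg, was under 0.05.

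Chemokines are small secreted proteins that guide leukocytes along gradients by binding G protein-coupled receptors on the cell surface. In liver they are made by hepatocytes, Kupffer cells, stellate cells and endothelium, and they bring in monocytes, T cells, natural killer cells and neutrophils when tissue is injured. Inflammatory ligands such as Ccl2 and Cxcl10 are switched on by NF-kappa-B and interferon signalling, homeostatic ligands such as Cxcl12 and Cxcl13 hold cells in place in resting tissue, and atypical receptors take up ligands without signalling through G proteins.

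The gene that the ChREBP virus carries was checked first. Mlxipl, which encodes ChREBP, lay between 9.07 and 9.61 on the GFP arrays and between 10.74 and 10.96 on the ChREBP arrays. It was 2.98-fold higher with ChREBP (1.57 ± 0.09 SE on the log2 scale), and the 2-sided exact permutation test over the 924 assignments of the arrays gave its smallest possible p, 0.00216. Hepatocyte markers were bright in every liver, with array means from 12.4 to 12.48 with GFP and from 12.01 to 12.23 with ChREBP. Of the 6 measured markers 5 fell, led by Tat (-0.63 ± 0.10) and Cps1 (-0.43 ± 0.07), where 13.7% of all genes fell. Among those that fell, Ttr (-0.11 ± 0.04) missed the threshold under 18 of the 25 alternative fits, and Alb did not pass (-0.07 ± 0.04). Ttr and Alb were named after their values were seen.

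Some arrays stood apart from the rest. Transcripts made in lung were high on ChREBP 5, where surfactant protein C, Sftpc, reached 12.86 and the club cell secretory protein Scgb1a1 reached 12.17. They were also raised on GFP 5, GFP 6 and ChREBP 2, where Sftpc read 10.01, 10.16 and 8.04, against 4.37 to 5.2 on the other 8 arrays. Pancreatic acinar markers averaged 12.2 on ChREBP 4 and were nearly as high on ChREBP 5. They averaged 7.53 on ChREBP 2 and 6.65 on ChREBP 6, against 5.96 to 6.15 on the GFP arrays. Scgb1a1 also read 6.32 on ChREBP 4, where Sftpc was 5.20, against 3.79 to 4.13 on the remaining arrays. Results were therefore also computed without ChREBP 4 and ChREBP 5, and without the 4 arrays where Sftpc was raised, a choice made for the lung transcripts after the data were seen.

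**Figure D1:**
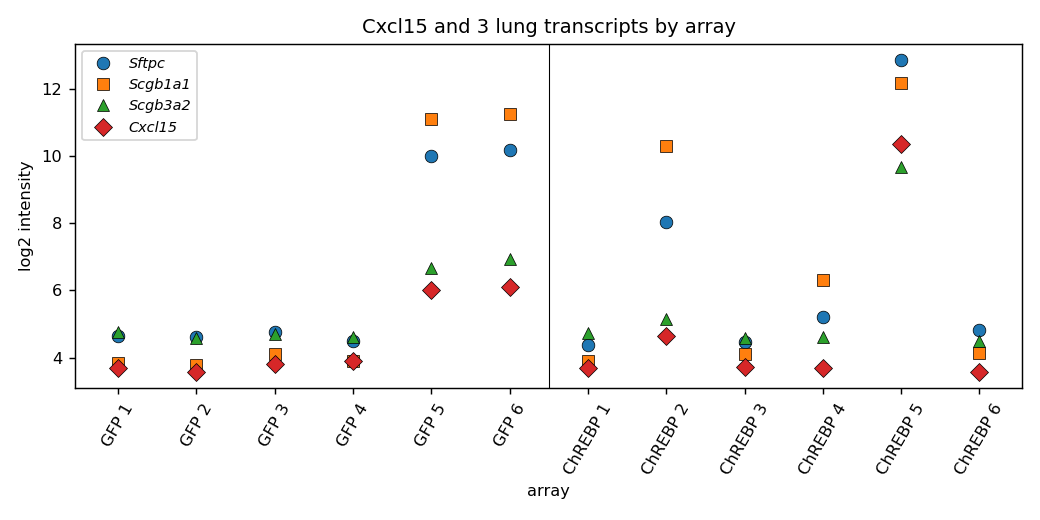
Log2 intensity (vertical axis) of Cxcl15 and of 3 lung transcripts, Sftpc, Scgb1a1 and Scgb3a2, on each of the 12 arrays (horizontal axis, 1 point a gene and array). All 4 genes were high on ChREBP 5 and raised on GFP 5 and GFP 6, and Sftpc and Scgb1a1 were also raised on ChREBP 2.

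Of the 55 members, 16 rose and 3 fell with ChREBP. The 19 that passed were 34.5% of the members, where 27.0% of all genes passed in either direction. Risen genes made up 32.4% of the ligands (11 of 34) and 23.8% of the receptors (5 of 21), beside 13.3% of all genes. Fallen genes made up 8.82% of the ligands (3 of 34), beside 13.7% of all genes. No receptor fell by limma after adjustment, although 1 receptor, Ccr10, was lower at an unadjusted p under 0.05, and 0 receptors fell by the methods' analysis of variance. In whole tissue, a change in the number of cells of a type and a change in RNA per cell cannot be told apart, for these genes and all that follow. Centring each array on its median shifted the split of calls among the members from 16 higher and 3 lower to 14 higher and 8 lower. The 8 lower members were 14.5% of the 55, and over all genes the same centring gave 11.0% higher and 28.1% lower. The methods' analysis of variance called 9 ligands and 4 receptors higher, beside 12.2% of all genes.

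**Figure D2:**
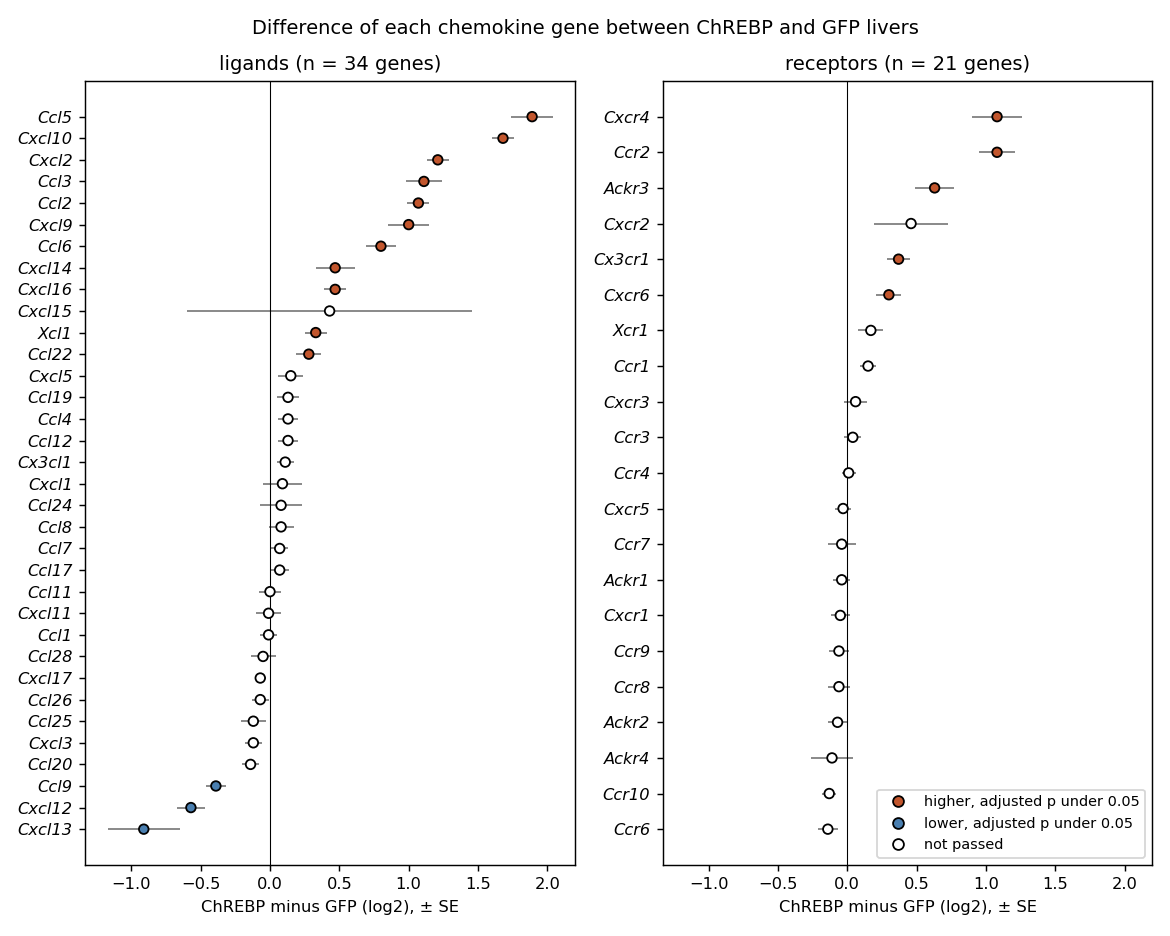
ChREBP minus GFP difference on the log2 scale (horizontal axis) with its standard error for each of the 34 ligands (left) and 21 receptors (right), in order of size; filled points passed at an adjusted p under 0.05. Risen genes reach 1.89 among ligands and 1.08 among receptors, and the 3 filled points left of 0 are all ligands.

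Ligand differences covered a wider range than receptor differences. They ran from -0.91 to 1.89 with a median of 0.10, those of receptors ran from -0.14 to 1.08 with a median of 0.01, and the median over all genes was -0.04. By the study's own rule, a change of at least 1.5-fold at an unadjusted p under 0.05, 8 ligands (7 up, 1 down) and 3 receptors (all up) changed, 11 of 55 members where 5.70% of all genes met the rule. The 6 values of one group lay wholly above the 6 of the other for 10 ligands (29.4%) and 2 receptors (9.52%), beside 15.2% of all genes. The mean deviation of the 34 ligands from their GFP means was -0.06 to 0.11 on the GFP arrays and 0.17 to 0.42 on the ChREBP arrays. For the 21 receptors the same measure was -0.05 to 0.07 and 0.10 to 0.29. The highest ligand and receptor means were both on ChREBP 5, where most lung transcripts were highest. The ligand mean there includes Cxcl15, which is made in lung and read 10.35 on that array against a GFP mean of 4.51. The means were not computed without Cxcl15. The difference between the ligands and the receptors as groups was not tested. Of the 30 members whose mean lay above the median of all values, 16 passed, against 3 of the 25 at or under it. Ligands and receptors were not matched for brightness, and its part in their ranges and calls was not tested.

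**Figure D3:**
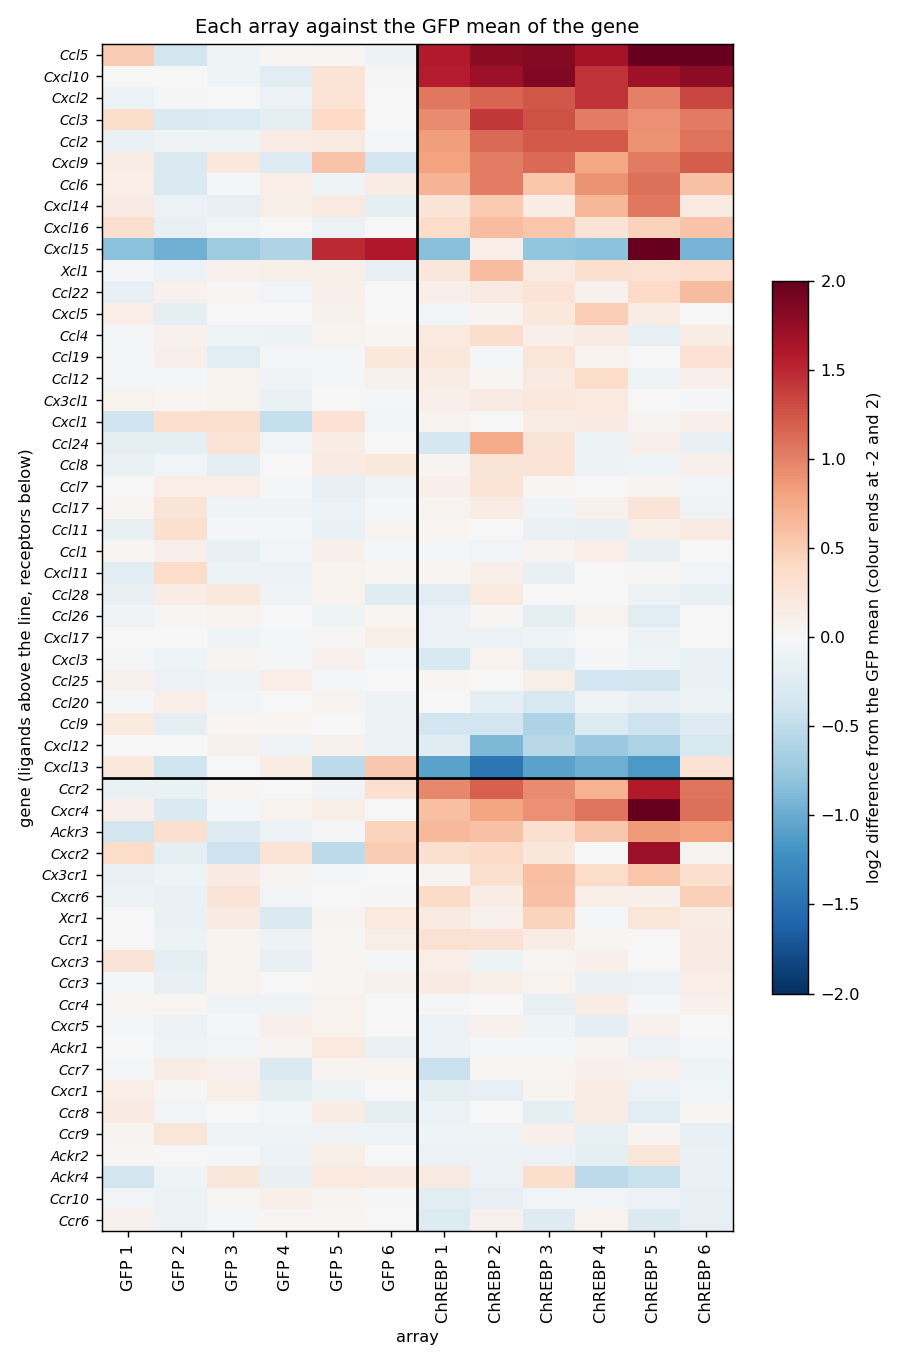
Deviation of each array (columns) from the mean of the 6 GFP arrays for each of the 55 genes (rows, ligands above the line and receptors below, in order of the group difference), on the log2 scale with red for higher and blue for lower; colours end at -2 and 2. The 16 genes that rose lay above the GFP mean on all 6 ChREBP arrays, and Cxcl15 lay above it on GFP 5, GFP 6, ChREBP 5 and, slightly, ChREBP 2 in place of following the groups.

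The Cxcr3 ligands, which interferon induces and which attract activated T cells and natural killer cells, included the largest CXC rise. Cxcl10 lay between 6.60 and 7.09 (median 6.80) in GFP livers and between 8.25 and 8.66 (median 8.52) in ChREBP livers. It was 3.20-fold higher (1.68 ± 0.08, adjusted p = 8.99e-09), and the groups did not overlap. Its neighbour Cxcl9 ran from 7.60 through a median of 7.93 to 8.56 with GFP, and from 8.76 through 9.02 to 9.20 with ChREBP. Cxcl9 was 2.00-fold higher (1.00 ± 0.15, adjusted p = 0.000175), again without overlap, and its highest GFP value was on GFP 5.

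The other gene of this group did not pass. Cxcl11 lay between 5.52 and 6.12 with GFP and between 5.60 and 5.85 with ChREBP, a difference of -0.01 with a 95% interval of -0.19 to 0.18. In C57BL/6 mice Cxcl11 is known to carry a null allele. Their receptor Cxcr3, found on activated T cells, ran from 6.17 through 6.35 to 6.62 with GFP and from 6.25 through 6.42 to 6.52 with ChREBP, and the ranges overlapped almost fully. Its difference was 0.06 with a 95% interval of -0.10 to 0.22.

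The RefSeq promoter table (build GRCm38.p6) held 41 of the 55 members. The 250 bases before the start are shown for Cxcl9 and Cxcl10, which rose as neighbours, and for Cxcl1 and Cxcl2, neighbours of which only the latter passed. Capitals mark matches on either strand to a kappa-B site, to GGNNTTTCC, or to the interferon-stimulated response element core GAAANNGAA; matches to the first pair can overlap. The sequences lie at chr5:92328080-92328329 on the minus strand for Cxcl9, chr5:92348890-92349139 on the minus strand for Cxcl10, chr5:90890995-90891244 on the plus strand for Cxcl1 and chr5:90903649-90903898 on the plus strand for Cxcl2.
Cxcl9: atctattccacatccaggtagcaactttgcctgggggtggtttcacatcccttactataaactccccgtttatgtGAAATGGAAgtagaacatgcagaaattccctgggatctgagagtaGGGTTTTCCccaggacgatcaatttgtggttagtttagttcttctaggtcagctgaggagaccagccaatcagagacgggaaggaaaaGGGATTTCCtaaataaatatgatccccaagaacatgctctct
Cxcl10: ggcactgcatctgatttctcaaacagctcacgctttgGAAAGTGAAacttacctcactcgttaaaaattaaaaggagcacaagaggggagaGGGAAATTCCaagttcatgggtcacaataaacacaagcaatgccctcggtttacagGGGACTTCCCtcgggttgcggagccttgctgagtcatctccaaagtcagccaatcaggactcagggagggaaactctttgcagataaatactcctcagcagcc
Cxcl1: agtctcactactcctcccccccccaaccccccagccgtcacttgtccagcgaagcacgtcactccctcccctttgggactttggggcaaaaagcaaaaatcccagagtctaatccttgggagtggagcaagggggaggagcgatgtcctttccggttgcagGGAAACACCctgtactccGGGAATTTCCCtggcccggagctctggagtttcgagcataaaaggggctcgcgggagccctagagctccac
Cxcl2: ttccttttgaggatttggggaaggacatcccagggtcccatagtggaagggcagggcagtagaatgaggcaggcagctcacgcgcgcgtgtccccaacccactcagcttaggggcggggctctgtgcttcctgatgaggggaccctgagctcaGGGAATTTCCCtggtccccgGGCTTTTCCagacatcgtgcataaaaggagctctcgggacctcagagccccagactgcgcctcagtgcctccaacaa
Cxcl10 held kappa-B sites beginning 159 and 103 bases before the start and an interferon element core beginning at 213. Cxcl1 and Cxcl2 both held the letters of a kappa-B site, beginning 71 and 97 bases before the start, although only Cxcl2 passed the test. A kappa-B site was present in 3.90% of the 32851 promoters in the table, GGNNTTTCC in 4.93% and the interferon element core in 7.13%.

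Ccl5, Ccl2 and Cxcl16, which rose, had no promoter in the table and were not searched. Among the 41 members with a promoter, 9 held a kappa-B site, 2 of the 13 that rose and 7 of the 28 others. Letters of the interferon element core were found in 8, namely 5 of the 13 that rose (Ccl3, Ccr2, Cxcl9, Cxcl10 and Cxcl14) and 3 of the 28 others (Ccl1, Ccl19 and Cxcr1). The gamma-activated sequence TTCNNNGAA matched 3 members and 7.02% of all promoters, the E-box CACGTG 2 members and 6.02%, and the TATA box TATAAA 13 members and 12.4%. The carbohydrate response element, the element bound by ChREBP, matched no member in this window and 0.0974% of all promoters. These matches are descriptions of the letters only.

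The CC ligands of the macrophage inflammatory group, which draw monocytes and T cells, held the largest rise of any member. Ccl5, also called RANTES and made by T cells, natural killer cells and macrophages, lay between 7.54 and 8.41 (median 7.87) with GFP and between 9.49 and 10.35 (median 9.72) with ChREBP. It was 3.71-fold higher (1.89 ± 0.15, adjusted p = 6.97e-07), with no overlap. The highest value, 10.35, was on ChREBP 5, and without that array the difference was 1.78 ± 0.13.

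Ccl3, made by activated macrophages, ran from 5.78 through 5.98 to 6.47 with GFP and from 6.99 through 7.10 to 7.49 with ChREBP. It rose 2.15-fold (1.11 ± 0.13, adjusted p = 2.91e-05). Ccl6, a rodent ligand expressed by macrophages, ran from 7.62 through 7.95 to 8.05 and from 8.45 through 8.69 to 9.01, and rose 1.74-fold (0.80 ± 0.11, adjusted p = 6.88e-05). For both genes every ChREBP array was above every GFP array.

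Ccl9, another rodent ligand of Ccr1, went the other way. It lay between 8.97 and 9.34 (median 9.16) with GFP and between 8.53 and 8.88 (median 8.76) with ChREBP, 1.31-fold lower (-0.39 ± 0.07, adjusted p = 0.00100), and the groups did not overlap. Ccl4, which shares receptors with Ccl3, ran from 5.97 to 6.16 with GFP and from 5.90 to 6.42 with ChREBP, and did not pass (0.13 ± 0.07, adjusted p = 0.213). Its lowest ChREBP value was on ChREBP 5, and without that array it passed (0.19 ± 0.06, adjusted p = 0.0267). Ccr1, the receptor of these ligands on monocytes and neutrophils, ran from 3.48 through 3.60 to 3.71 and from 3.59 through 3.74 to 3.89, and did not pass (0.15 ± 0.06, adjusted p = 0.0888), although it did without ChREBP 5 (0.18 ± 0.06, adjusted p = 0.0485).

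Ccl2, the main attractant of inflammatory monocytes, and its receptor Ccr2 rose together. Ccl2 lay between 6.38 and 6.70 (median 6.46) with GFP and between 7.36 and 7.75 (median 7.63) with ChREBP, 2.11-fold higher (1.07 ± 0.08, adjusted p = 4.49e-07). Ccr2 lay between 5.38 and 5.84 (median 5.47) with GFP and between 6.21 and 7.10 (median 6.53) with ChREBP, also 2.11-fold higher (1.08 ± 0.13, adjusted p = 2.13e-05). Neither gene's groups overlapped. The highest Ccr2 value was again on ChREBP 5, and the difference without it was 0.97 ± 0.10. The other ligands placed in the monocyte group did not pass, with differences of 0.07 for Ccl7, 0.13 for Ccl12 and 0.08 for Ccl8. In the pairs of receptors and ligands set out below, Ccl8 was listed under Ccr8 and not under Ccr2.

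Monocyte and macrophage markers were higher in the same livers. Their array means, Ccr2 left out, were 7.05 to 7.30 with GFP and 7.84 to 8.10 with ChREBP. Of the 9 measured markers 6 rose, beside 13.3% of all genes. The risen markers included Gpnmb (2.17 ± 0.12) and Cd14 (1.45 ± 0.12). Itgam (0.18 ± 0.08), Lyz2 (0.55 ± 0.23) and Trem2 (-0.10 ± 0.04) did not pass, all named after their values were seen. Trem2 lay lower on every ChREBP array than on every GFP array. The markers of resident Kupffer cells averaged 8.28 to 8.62 and 7.86 to 8.12, with 6 of 10 lower, among them Cd163 (-2.10 ± 0.13) and Timd4 (-1.59 ± 0.10), and 2 higher, Cd5l (0.83 ± 0.11) and Id3 (0.60 ± 0.12, named after its value was seen). Over all genes, 13.3% rose and 13.7% fell. Of the lower Kupffer cell markers, Vsig4 missed the threshold under 11 and Marco under 10 of the 25 alternative fits, both named after their values were seen. The part of monocytes, macrophages and Kupffer cells in the values of Ccl2, Ccr2 or any other member was not tested.

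The CXC ligands with the ELR motif, which attract neutrophils through Cxcr2, gave 1 clear rise among 5 genes. Cxcl2 lay between 4.64 and 5.03 (median 4.74) with GFP and between 5.77 and 6.21 (median 5.96) with ChREBP, 2.31-fold higher (1.21 ± 0.08, adjusted p = 1.88e-07), with no overlap. Cxcl1, which shares the receptor, ran from 8.22 through 8.82 to 9.04 with GFP and from 8.69 through 8.79 to 8.86 with ChREBP. Its difference was 0.09 with a 95% interval of -0.21 to 0.38, and all ChREBP arrays lay inside the wider GFP range. Cxcl5 and Cxcl3 did not pass (0.15 ± 0.09 and -0.12 ± 0.06).

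Cxcl15, the ELR ligand of lung epithelium, followed the lung transcripts and not the groups. It read 10.35 on ChREBP 5, 6.01 on GFP 5, 6.11 on GFP 6 and 4.64 on ChREBP 2, against 3.56 to 3.91 on the other 8 arrays. Its difference of 0.43 ± 1.03 became -0.65 ± 0.48 without ChREBP 5 and -0.07 ± 0.08 without those 4 arrays. Cxcr2 ran from 4.85 through 5.41 to 5.87 with GFP and from 5.37 through 5.64 to 7.10 with ChREBP, with 7.10 on ChREBP 5, and did not pass with that array (0.46 ± 0.27, adjusted p = 0.235) or without it (0.20 ± 0.18, adjusted p = 0.440). None of the 10 neutrophil markers passed by limma or by the methods' analysis of variance. At an unadjusted p under 0.05, 2 were higher with ChREBP, S100a9 (0.64 ± 0.27, with 4 of 6 ChREBP arrays above all GFP arrays) and Csf3r (0.18 ± 0.07), both named after their values were seen. S100a8 read 0.53 ± 0.27 higher, and Ly6g lay between 4.06 and 4.43 with GFP and between 4.06 and 4.36 with ChREBP.

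Ligands of other inflammatory and transmembrane kinds moved less. Cxcl16, a membrane-bound ligand that also acts as a scavenger receptor, ran from 6.31 through 6.42 to 6.77 with GFP and from 6.73 through 6.97 to 7.07 with ChREBP, 1.39-fold higher (0.47 ± 0.08, adjusted p = 0.000584). GFP 1 alone overlapped the ChREBP range. Cxcr6, its receptor on liver-resident T and natural killer T cells, ran from 5.82 through 5.93 to 6.20 and from 6.05 through 6.21 to 6.53. It rose 1.23-fold (0.30 ± 0.09, adjusted p = 0.0259) with 3 of 6 ChREBP arrays above all GFP arrays.

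Xcl1, made by natural killer and CD8 T cells, rose 1.26-fold (0.33 ± 0.08, adjusted p = 0.00539), from 6.02 to 6.31 with GFP to 6.37 to 6.80 with ChREBP, without overlap. Its receptor Xcr1, which marks cross-presenting dendritic cells, ran from 4.49 through 4.82 to 4.97 and from 4.74 through 4.94 to 5.22, and did not pass (0.17 ± 0.09, adjusted p = 0.179). Ccl22, which attracts T helper and regulatory T cells through Ccr4, rose 1.21-fold (0.28 ± 0.09, adjusted p = 0.0293), with 4 of 6 ChREBP arrays above all GFP arrays. Its neighbour and co-ligand Ccl17 (0.07 ± 0.07) and the receptor Ccr4 (0.01 ± 0.05) did not pass.

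The calls of Ccl22, Cxcr6 and Cxcl14 lay near the threshold. By the methods' analysis of variance none of the 3 passed (adjusted p = 0.0540 for Ccl22, 0.0509 for Cxcr6 and 0.0551 for Cxcl14), and with median centring Ccl22 (0.22, adjusted p = 0.0580) and Cxcr6 (0.24, adjusted p = 0.0561) did not. With each array left out in turn, the difference of Ccl22 stayed between 0.21 and 0.31 and that of Cxcr6 between 0.24 and 0.35. Ccl22 missed the threshold without ChREBP 3 (adjusted p = 0.0510), ChREBP 5 (0.0582), GFP 1 (0.0641) or GFP 4 (0.0562). Cxcr6 missed it without ChREBP 1 (adjusted p = 0.0539), ChREBP 3 (0.0559), ChREBP 6 (0.0575), GFP 1 (0.0546) or GFP 2 (0.0538). Cxcl14, a ligand of epithelia and fibroblasts that rose 1.39-fold (0.47 ± 0.14, adjusted p = 0.0233), missed it without GFP 3 (adjusted p = 0.0508) or without ChREBP 4 and ChREBP 5 together (0.28, adjusted p = 0.0573). Its values ran from 6.24 through 6.43 to 6.61 and from 6.58 through 6.82 to 7.49, and the highest was on ChREBP 5.

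T cell and natural killer cell markers bore on this group, and their counts stand beside 13.3% of all genes that rose and 13.7% that fell. Of the 9 T cell markers 5 rose, led by Cd3g (1.07 ± 0.18), and their array means were 5.72 to 5.99 with GFP and 6.04 to 6.53 with ChREBP. Of the 10 natural killer cell markers 4 rose, led by the granzyme Gzma (1.85 ± 0.24) and the granule protein Nkg7 (0.99 ± 0.18), both of which cytotoxic T cells also express. Of the natural killer receptors, Klrk1, also found on CD8 T cells, rose without overlap (0.38 ± 0.06, adjusted p = 0.000509), and Ncr1 and Klrb1c did not pass (0.02 and -0.13). Both list means were highest on ChREBP 5, and none of the 9 B and plasma cell markers passed by limma or by the methods' analysis of variance (1 at an unadjusted p under 0.05). The part of these cells in the chemokine values was not tested.

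**Figure D4:**
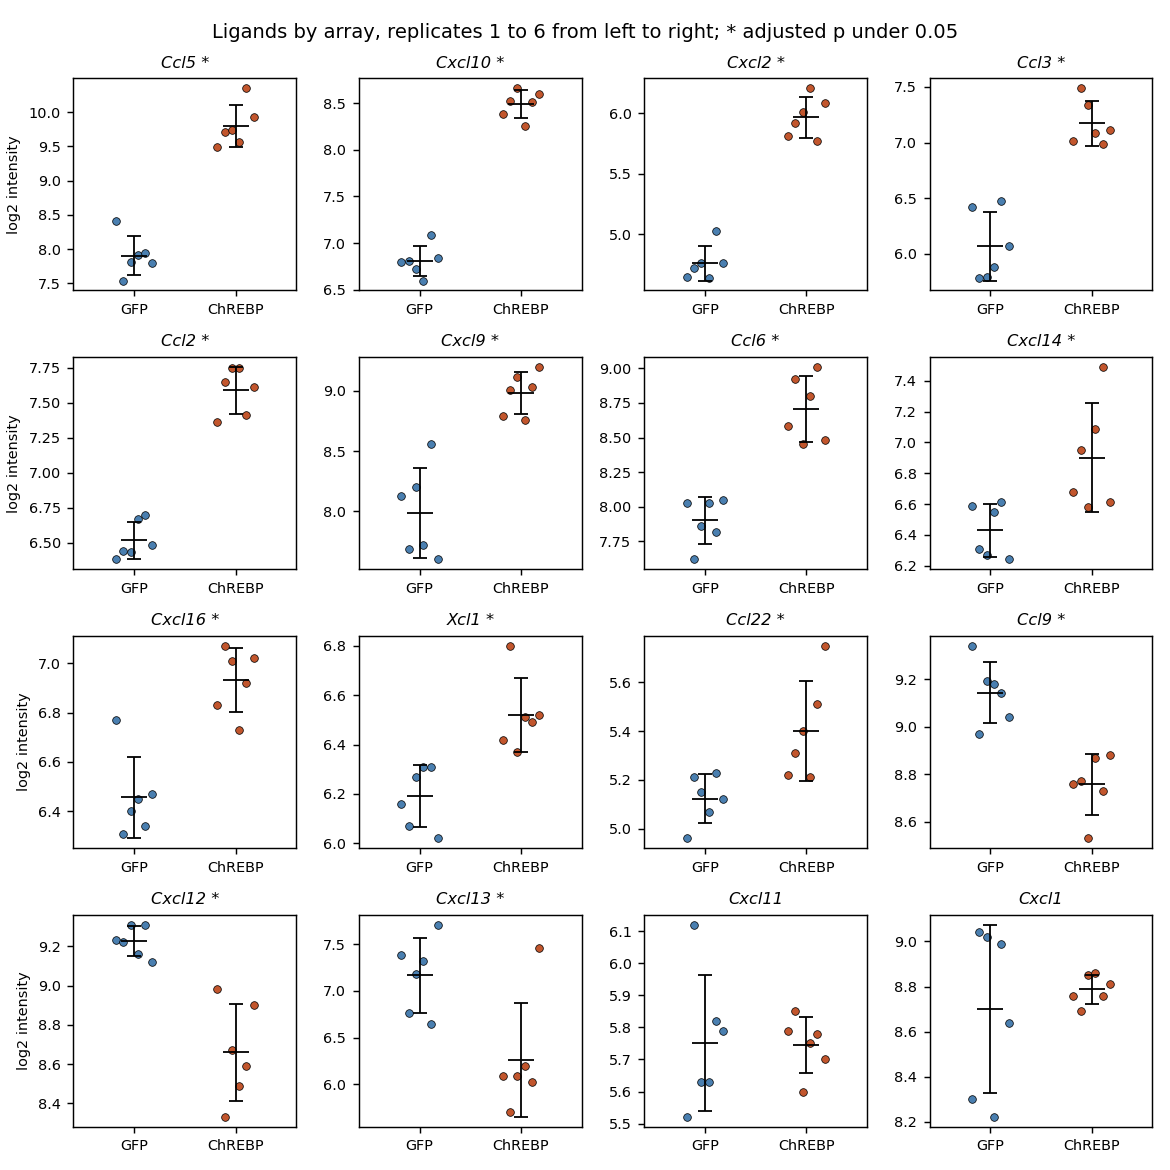
Log2 intensity (vertical axes, scaled to each gene) of the 14 ligands that passed, marked with an asterisk, and of Cxcl11 and Cxcl1, for the 6 GFP (blue) and 6 ChREBP (orange) arrays; each point is 1 array, and bars give the mean ± SD. Ccl5, Cxcl10, Cxcl2, Ccl3, Ccl2, Cxcl9, Ccl6 and Xcl1 lay higher on every ChREBP array, whereas Cxcl12 and Ccl9 lay lower on every one.

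The homeostatic CXC ligands included the largest falls. Cxcl13, which organises B cells through Cxcr5, ran from 6.64 through 7.25 to 7.71 with GFP and from 5.70 through 6.09 to 7.46 with ChREBP, 1.87-fold lower (-0.91 ± 0.26, adjusted p = 0.0181). Of the ChREBP arrays 5 lay below all GFP arrays, whereas ChREBP 6 read 7.46, inside the GFP range. Without ChREBP 6 the difference was -1.15, and without ChREBP 4 and ChREBP 5 together it was -0.83 and no longer passed (adjusted p = 0.0636). Cxcr5, on B cells and follicular T cells, ran from 4.07 through 4.19 to 4.29 and from 4.01 through 4.15 to 4.27, and did not pass (-0.03 ± 0.06).

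Cxcl12, the stromal ligand that retains leukocytes and progenitor cells, fell while both of its receptors rose. It lay between 9.12 and 9.31 (median 9.23) with GFP and between 8.33 and 8.98 (median 8.63) with ChREBP, 1.48-fold lower (-0.57 ± 0.10, adjusted p = 0.000502), and the groups did not overlap. Cxcr4, its signalling receptor on most leukocytes, lay between 7.58 and 7.99 (median 7.91) with GFP and between 8.47 and 9.89 (median 8.85) with ChREBP, 2.12-fold higher (1.08 ± 0.18, adjusted p = 0.000542), also without overlap. The value of 9.89 was on ChREBP 5, and without it the difference was 0.89 ± 0.10.

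Ackr3, the atypical receptor that takes up Cxcl12, ran from 5.19 through 5.49 to 6.01 with GFP and from 5.88 through 6.18 to 6.42 with ChREBP. It rose 1.54-fold (0.63 ± 0.14, adjusted p = 0.00347), and 5 of 6 ChREBP arrays were above all GFP arrays. The other atypical receptors did not pass, with differences of -0.04 for Ackr1, -0.07 for Ackr2 and -0.11 for Ackr4. Cxcl17, a mucosal ligand placed with this group, did not pass either (-0.07 ± 0.04).

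Cx3cr1, the fractalkine receptor of monocytes and macrophages, ran from 6.56 through 6.68 to 6.86 with GFP and from 6.74 through 7.04 to 7.29 with ChREBP. It rose 1.29-fold (0.37 ± 0.08, adjusted p = 0.00461), with 5 of 6 ChREBP arrays above all GFP arrays. Its ligand Cx3cl1 ran from 5.88 through 6.04 to 6.08 and from 5.98 through 6.15 to 6.23, and did not pass (0.11 ± 0.06, adjusted p = 0.153).

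**Figure D5:**
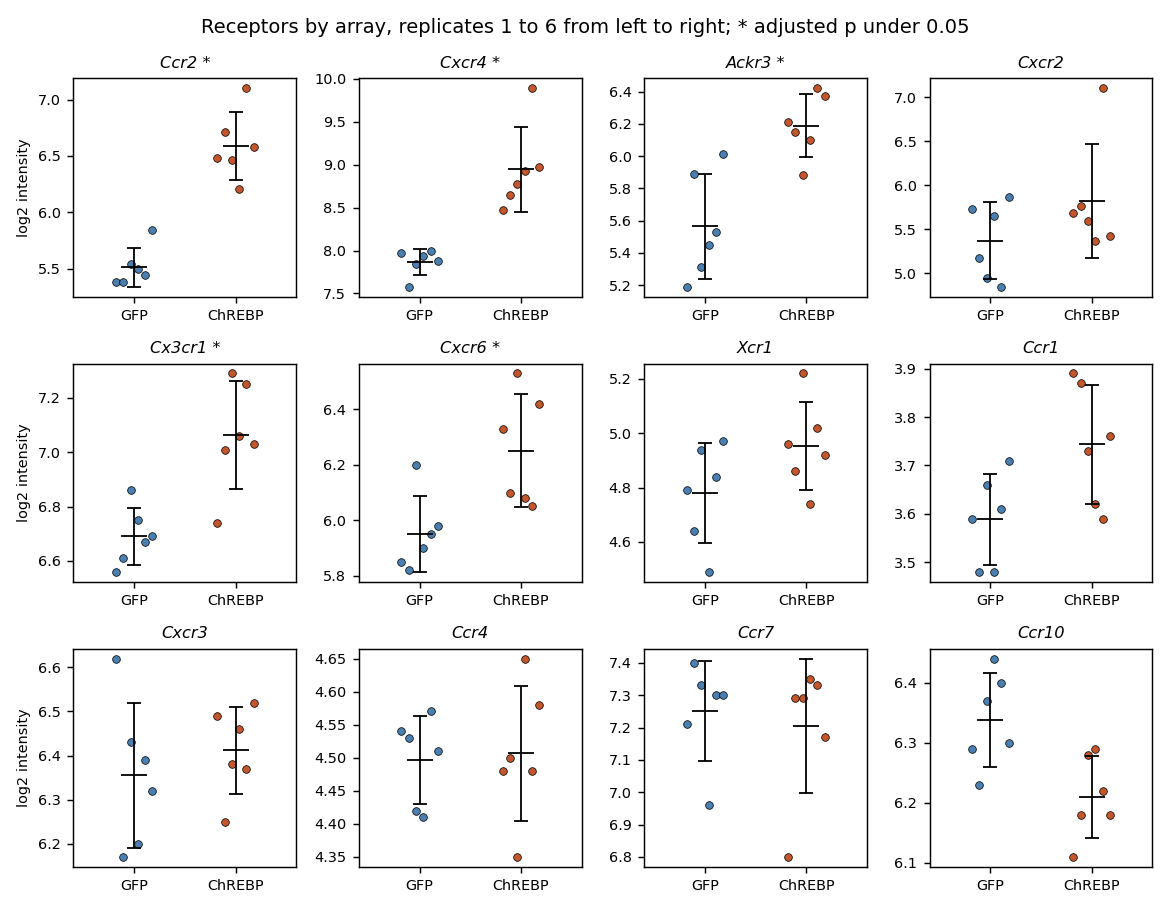
Log2 intensity (vertical axes, scaled to each gene) of 12 receptors, those that passed marked with an asterisk, for the 6 GFP (blue) and 6 ChREBP (orange) arrays; each point is 1 array, and bars give the mean ± SD. Ccr2 and Cxcr4 lay higher on every ChREBP array, and the points at the top of the ChREBP column of Ccr2, Cxcr4 and Cxcr2 are all ChREBP 5.

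The remaining members did not pass. Ligands of this kind were the eotaxins Ccl11, Ccl24 and Ccl26, which attract eosinophils (0.00, 0.08 and -0.07), the Ccr7 ligand Ccl19 (0.13), the Ccr6 ligand Ccl20 (-0.14), the Ccr8 ligand Ccl1 (-0.01) and the epithelial ligands Ccl25 and Ccl28 (-0.12 and -0.05). The receptors were Ccr3 (0.04), Ccr6 (-0.14), Ccr7 (-0.04), Ccr8 (-0.06), Ccr9 (-0.06), Ccr10 (-0.13) and Cxcr1 (-0.05). Ccr10, which guides T cells and plasma cells to epithelia, came closest to the threshold among those lower (adjusted p = 0.0694), and passed as lower without GFP 2 (-0.15 ± 0.05, adjusted p = 0.0374). Over all members that did not pass, ligand differences ran from -0.14 to 0.43 and receptor differences from -0.14 to 0.46. Rows shared by several Ccl21 genes read 0.32 higher with ChREBP and rows shared by the Ccl27 genes 0.00 to 0.01 higher, and none of these 7 rows passed over all rows of the table (lowest adjusted p 0.306 and 0.895). The 5 rows of Ccl19 read 0.13 to 0.20 higher, and the 2 rows of Ccl25 differed in sign (-0.12 and 0.10), none of them passing.

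Receptors and their ligands were then set side by side, from a list of pairs that was not complete. Ackr1, Ackr2, Ackr4 and Cxcr1 were not in that list, so the counts leave them out. Of the 17 receptors with a listed ligand among the members, 2 rose together with a ligand, Ccr2 with Ccl2 and Cxcr6 with Cxcl16. A further 3 rose without a risen ligand, namely Cxcr4 and Ackr3, whose ligand Cxcl12 fell, and Cx3cr1. For 6 receptors that did not pass (Cxcr3, Cxcr2, Ccr1, Ccr3, Ccr4 and Xcr1) at least 1 ligand rose, and for the other 6 neither the receptor nor a ligand rose.

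Calls were also set out by position. Over all genes, 13.3% rose, 13.7% fell and 27.0% passed in either direction, and no cluster was tested as a set. By the RefSeq gene table, 34 of the 55 members fell into 9 clusters with gaps of at most 0.5 Mb. Ccl2 was the only 1 of its 6 clustered genes to pass, beside Ccl7, Ccl11, Ccl12, Ccl8 and Ccl1. In the cluster of Ccl5, Ccl9, Ccl6, Ccl3 and Ccl4, 3 rose and 1 fell, and in that of Cxcl5, Cxcl3, Cxcl15, Cxcl1 and Cxcl2 only Cxcl2 passed. Among the 6 clustered receptors Ccr9, Cxcr6, Xcr1, Ccr1, Ccr3 and Ccr2, Cxcr6 and Ccr2 rose.

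Genes around the chemokine system were read from lists of textbook members. The counts in these lists stand beside 13.3% of all genes that rose and 13.7% that fell, and no list was tested as a set. Of 26 measured genes that act downstream of chemokine receptors, 13 rose and 1 fell, with a median difference of 0.23. The risen genes included Rgs1 (1.22 ± 0.17) and Rgs2 (1.12 ± 0.10), which shorten G protein signalling, and Elmo1 (1.08 ± 0.10) and Dock2 (0.71 ± 0.11), which drive Rac during migration, and Stat3 fell (-0.36 ± 0.06). Of 17 adhesion molecules used in leukocyte entry, 8 rose and 0 fell by limma or by the methods' analysis of variance (0 lower at an unadjusted p under 0.05), led by the integrin Itga4 (1.08 ± 0.09) and its endothelial partner Vcam1 (1.00 ± 0.10).

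Of 26 regulators in the NF-kappa-B and interferon pathways, 10 rose and 2 fell, with a median of 0.17. Irf7, an interferon-induced activator of antiviral genes, rose by 0.98 ± 0.10, Atf3 by 0.65 ± 0.13, Irf1 by 0.57 ± 0.08 and the NF-kappa-B inhibitor Tnfaip3 by 0.48 ± 0.05. Of 18 proteases that cut or shed chemokines, 8 rose and 2 fell. The macrophage elastase Mmp12 went from between 5.90 and 6.92 to between 9.85 and 10.18 (3.70 ± 0.15), Mmp13 rose by 1.69 ± 0.10, and Dpp4, which trims the ends of Cxcl10 and Cxcl12, fell (-0.66 ± 0.06). Of 14 other chemoattractants and their receptors, 6 rose and 3 fell, among them the anaphylatoxin receptors C5ar1 (1.10 ± 0.10) and C3ar1 (0.57 ± 0.06), and the sphingosine phosphate receptor S1pr1, which fell (-0.52 ± 0.11). The other genes of these lists that fell were Ikbkb (-0.29 ± 0.05), Irf5 (-0.23 ± 0.07), Anpep (-0.33 ± 0.05), Ltb4r1 (-0.23 ± 0.07) and Gpr1 (-0.20 ± 0.06). They and Stat3 were named after their values were seen, and Irf5, Ltb4r1 and Gpr1 missed the threshold under 11 to 13 of the alternative fits. Among the genes counted as risen, Rela and Mmp2 missed it under 13, Nfkbiz and Cklf under 12, Arrb1 under 11 and Ccrl2 under 10. These genes too were named after their values were seen.

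Most calls held without the arrays that stood apart. Without ChREBP 5, 18 of the 19 members that passed still did, and without ChREBP 4 and ChREBP 5 together 17 did. Without GFP 5, GFP 6, ChREBP 2 and ChREBP 5 together, a fit that kept ChREBP 4, 15 did. All 19 kept their sign in each of these fits. No fit left out all of these arrays at once. The 4 that missed the threshold with 4 arrays a group were Ccl22 (0.30, adjusted p = 0.115), Cx3cr1 (0.33, adjusted p = 0.0669), Cxcl13 (-0.70, adjusted p = 0.124) and Cxcl14 (0.31, adjusted p = 0.111). The largest rises were close to those on all arrays, with Ccl5 at 1.76 ± 0.17, Cxcl10 at 1.74 ± 0.10 and Cxcl2 at 1.34 ± 0.09.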

How the data were processed

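Total RNA of 12 livers was amplified, labelled with biotin and hybridised to Affymetrix arrays, 1 a mouse. The deposited table holds log2 intensities that the authors made with RMA (background correction, quantile normalization and summary by probe set) and Partek, as the submitters' processing notes name them without versions. Quantile normalization makes the arrays' distributions alike, and array medians lay between 5.96 and 6.05. Of 35556 rows, 21789 had 1 gene symbol in the platform annotation, 1621 had several and 12146 were unnamed in it. Symbols were updated through Entrez IDs (21698 rows matched), and the brightest row stood for each of 19938 genes.

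Groups came from the sample titles. The lmFit and eBayes functions of limma 3.58.1 (R 4.3.3) gave each gene's difference and its test (6 against 6 arrays, no covariates, two-sided, Benjamini-Hochberg adjustment over all genes, threshold 0.05), and the fit was tested on simulated data. Promoters came from RefSeq (GRCm38.p6). The precision is limited by the number of arrays. Members that passed were all named. Lowest, median and highest values were given for the ligands and receptors with the largest differences and for their partners. At most 4 genes were named a list, plus defining markers and genes said to be named after their values were seen. The members, lists and tests were chosen with earlier results of these data known. Alternatives were other normalizations, centring, filters, moderation, array weights, a replicate block, left-out arrays and the study's fold rule. Not every chemokine receptor gene is analysed here.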

Additional observations from a re-analysis of the deposited data

Results flagged for a closer look

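Within each group of 6 arrays, the gap between the highest or lowest array and the nearest of the others, as a share of the group's range, was computed for Mlxipl and the 55 members. It was large enough for Dixon's test in 11 of 112 groups, where chance gives about 1 in 20. ChREBP 5 held 4 of the 11. On it, Cxcl15 (gap 0.844 of the range) read 10.35 against 4.64 on the nearest array, Ackr2 (0.785) read 6.65 against 6.31, Cxcr2 (0.776) read 7.10 against 5.76 and Cxcr4 (0.646) read 9.89 against 8.97. ChREBP 5 also carried the highest lung transcripts and high pancreatic transcripts, and their part in these values was not tested.

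On other ChREBP arrays, Cxcl13 on ChREBP 6 (0.721) read 7.46 against 6.19, Ccr7 on ChREBP 1 (0.679) read 6.80, below 7.17, and Xcl1 on ChREBP 2 (0.654) read 6.80 against 6.52. On the GFP arrays, Cxcl2 on GFP 5 (0.690) read 5.03 against 4.76, Ccr2 on GFP 6 (0.652) read 5.84 against 5.54, Cxcl16 on GFP 1 (0.651) read 6.77 against 6.47, and Cxcr4 on GFP 2 (0.639) read 7.58, below 7.84.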

How the results depend on the processing

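Of the 19 members that passed, 14 passed under all 25 alternative fits that measured them, and the 5 exceptions were Ccl22, Cxcr6, Cxcl14, Cxcl13 and Cx3cr1; no called member changed sign. Of the 36 that did not pass, 7 passed under at least 1 alternative fit. The study's fold rule left 7 ligands higher, 1 ligand lower, 3 receptors higher and 1137 genes in all. Median centring gave 6 ligands lower and 2 receptors lower; the additional ligands were Ccl20, Cxcl17 and Cxcl3, and the receptors Ccr6 and Ccr10. Ccr10 was the 1 receptor lower after repeated quantile normalization, with array weights and without GFP 2. Leaving out each array in turn gave 10 to 11 ligands higher, 3 ligands lower, 4 to 6 receptors higher, 0 to 1 receptors lower and 4656 to 5632 genes in all, beside 5375, and a Mlxipl difference of 1.52 to 1.63. Without the 4 arrays with lung transcripts, 3531 genes passed, with fewer samples. Deviations of same-numbered arrays correlated between -0.061 and 0.254. The highest was for number 6, the only number whose arrays were best matched to each other. Such correlations cannot settle whether the replicate numbers pair the arrays. With a replicate block, the same 19 members passed, and 4439 genes in all. No detection calls were used here, so a dim gene need not lie above background: 25 members averaged at or under the median of all values, and 3 of them passed.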
